A study of Danio rerio with 2 samples.

Results

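The genes described here are the FK506-binding proteins *fkbp1aa*, *fkbp1ab* and *fkbp8* and the heat shock protein genes *hspa4a* and *hspa4b*, 5 of the 84 pathway genes on a zebrafish mTOR signaling PCR array. They are all the array genes whose symbol starts with fkbp or hspa4. The set was chosen by the difference of *fkbp1ab* and *hspa4a* between the genotypes under most choices of reference gene, so the genotype values below are a description of these samples and carry no test. The array was run on whole larvae at 10 days post-fertilization (dpf), pooled per the labels at 200 to 250 larvae into 3 biological replicates per genotype. The groups were wild type (WT) zebrafish, of the AB/TU background per the methods, and NOD1-1IS-/- zebrafish. The latter are homozygous for an insertion of 1 base pair made with Cas9 and a guide RNA in *NOD1*, which codes for an intracellular receptor of bacterial peptidoglycan fragments, so the mutant group stands for 1 allele. Neither group received a treatment according to the labels. The methods give no background for the mutant line and do not say whether the larvae of both groups were siblings. Genotype therefore cannot be told apart from background or parents here. The paper reports later hatching and lower larval survival of these mutants, and a difference in stage or health at sampling was not tested. The gene *nod1* is not on the array, so the genotype could not be checked by its transcript, and none of the 5 genes lies on its chromosome in the RefSeq gene table of assembly GRCz12tu.

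FK506-binding proteins are immunophilins, many but not all of which are enzymes that turn peptide bonds before proline and bind the drugs FK506 and rapamycin. In mammals the small cytosolic member FKBP1A, also called FKBP12, forms with rapamycin the complex that docks on the mTOR kinase and blocks mTOR complex 1. Mammalian FKBP8 is anchored in the outer membrane of mitochondria, binds the survival protein BCL2 and has been described to interact with Rheb, the GTPase that activates mTOR complex 1. Mammalian HSPA4 belongs to the Hsp110 branch of the Hsp70 superfamily and releases ADP from Hsp70, so that the chaperone can let go of its client protein. Zebrafish carry many such genes as a pair of copies, named with a final a and b. By symbol, the array reads an a and a b gene of *fkbp1a* and of *hspa4*. The deposited annotation gives *hspa4l* as another name of *hspa4a* and *hspa4* as another name of *hspa4b*. Pairs of copies are named here by these symbols alone, and their descent from 1 gene was not tested.

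Expression was read as the threshold cycle (Ct), the PCR cycle at which the SYBR Green signal of a well passes a set level, with 1 primer pair and 1 well per gene in each replicate. Where every cycle doubles the product, template that is 2 times as abundant is seen 1 cycle earlier. All 534 gene wells gave a Ct, the latest at 28.98 of 40 cycles. The files number the control wells differently, and the last 3 wells of the plate were taken as the positive PCR control by their order and because the other control wells, 24 over the 6 replicates, were listed as undetermined. This control, a fixed template, had a mean Ct of 19.71, 19.71 and 19.70 in the WT replicates and of 19.25, 19.69 and 19.55 in NOD1-1IS-/- replicates 1, 2 and 3. It came 0.21 cycles earlier in NOD1-1IS-/-, mostly through replicate 1, and changed by −0.091 cycles without it. Within each replicate the average Ct of the reference genes *hprt1*, *nono* and *rpl13a* was subtracted to give ΔCt, which is higher where expression is lower. The difference between genotypes is given as log2, mean −ΔCt of NOD1-1IS-/- minus that of WT. Its standard error is taken from limma, which draws the variance of each gene towards that of all pathway genes. It can therefore be larger or smaller than the SDs of that gene alone would give. Primer pairs differ in efficiency, so the Ct of different genes were not read as amounts of one transcript against another. Because whole larvae were pooled, fewer cells that express a gene and less RNA per cell cannot be told apart.

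Of the 2 copies of *fkbp1a*, *fkbp1ab* (NM_001005594) was lower in NOD1-1IS-/- larvae and *fkbp1aa* (NM_199945) was at nearly the same level in both genotypes. The ΔCt of *fkbp1ab* was 5.93, 5.85 and 6.07 cycles in WT replicates 1, 2 and 3, and 6.50, 6.48 and 6.55 cycles in NOD1-1IS-/- replicates 1, 2 and 3. All 3 NOD1-1IS-/- replicates lay above the highest WT replicate, and they lay closer together than the WT replicates did. The WT mean was 5.95 ± 0.11 cycles (SD, n = 3) and the NOD1-1IS-/- mean 6.51 ± 0.034 cycles (SD, n = 3). The log2 difference was −0.56 (standard error 0.10), or 32.2% lower expression. In linear units the expression of *fkbp1ab* relative to the reference genes was 0.0162 ± 0.0012 (SD, n = 3) for WT larvae and 0.0110 ± 0.00026 (SD, n = 3) for NOD1-1IS-/- larvae. With a Ct of 25.4 to 25.9 over the 6 replicates, *fkbp1ab* was the latest of the 5 genes.

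The copy *fkbp1aa* was the earliest of the 5 genes, with a Ct of 17.7 to 18.1. Its ΔCt was −1.54, −1.53 and −1.68 cycles in the WT replicates and −1.52, −1.68 and −1.50 cycles in the NOD1-1IS-/- replicates, so the genotypes overlapped throughout. The WT mean was −1.59 ± 0.085 cycles (SD, n = 3) and the NOD1-1IS-/- mean −1.57 ± 0.098 cycles (SD, n = 3), a log2 difference of −0.02 (standard error 0.11).

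The membrane-anchored immunophilin gene *fkbp8* (NM_200884) had a ΔCt of 3.71, 3.72 and 3.49 cycles in the WT replicates and of 3.58, 3.48 and 3.69 cycles in the NOD1-1IS-/- replicates. The replicates of the genotypes were interleaved. The WT mean was 3.64 ± 0.13 cycles (SD, n = 3) and the NOD1-1IS-/- mean 3.58 ± 0.11 cycles (SD, n = 3), and the log2 difference of 0.06 (standard error 0.11) was smaller than either SD.

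Of the 2 *hspa4* genes by symbol, *hspa4a* (NM_214716) was lower in NOD1-1IS-/- larvae, and the shift of *hspa4b* (NM_199857) was small. The ΔCt of *hspa4a* was 3.45, 3.34 and 3.48 cycles in the WT replicates and 4.15, 3.84 and 4.45 cycles in NOD1-1IS-/- replicates 1, 2 and 3. The NOD1-1IS-/- replicates were all above the WT replicates, but they were spread over a wider range, with replicate 2 nearest to WT and replicate 3 farthest. The WT mean was 3.42 ± 0.075 cycles (SD, n = 3) and the NOD1-1IS-/- mean 4.15 ± 0.31 cycles (SD, n = 3). The log2 difference was −0.72 (standard error 0.15 from limma), or 39.3% lower expression, the largest of the 5 genes. The SDs of *hspa4a* alone would give a larger standard error. The log2 difference was −0.88 without NOD1-1IS-/- replicate 2 and −0.57 without NOD1-1IS-/- replicate 3. The linear expression of *hspa4a* relative to the reference genes was 0.0932 ± 0.0049 (SD, n = 3) for WT larvae and 0.0574 ± 0.012 (SD, n = 3) for NOD1-1IS-/- larvae.

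For *hspa4b* the ΔCt was 1.49, 1.58 and 1.52 cycles in the WT replicates and 1.58, 1.54 and 1.79 cycles in the NOD1-1IS-/- replicates. Replicates 1 and 2 of NOD1-1IS-/- lay within or next to the WT range, and only replicate 3 lay apart from it. The WT mean was 1.53 ± 0.045 cycles (SD, n = 3) and the NOD1-1IS-/- mean 1.64 ± 0.13 cycles (SD, n = 3), and the log2 difference was −0.11 (standard error 0.11). Replicate 3 was the NOD1-1IS-/- replicate with the highest ΔCt for all 5 genes.

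**Figure D1:**
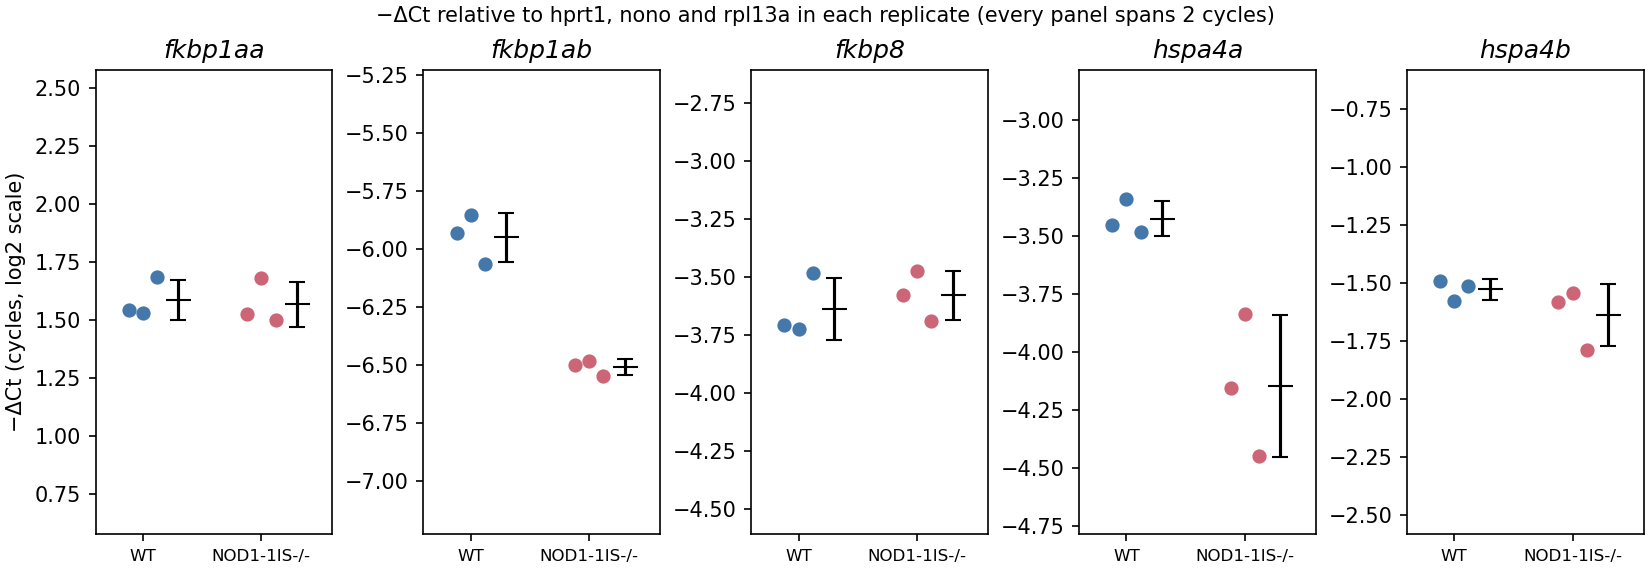
−ΔCt of the 5 genes in each replicate, relative to *hprt1*, *nono* and *rpl13a*, on a log2 scale in cycles, with WT in blue and NOD1-1IS-/- in red. Points are replicates 1 to 3 from left to right, bars are the mean ± SD, and every panel spans 2 cycles; the genotypes do not overlap for *fkbp1ab* (mean ΔCt 5.95 and 6.51) and *hspa4a* (mean ΔCt 3.42 and 4.15) and overlap for the other 3 genes.

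WT and NOD1-1IS-/- replicates were fully separated for 2 of the 5 genes, *fkbp1ab* and *hspa4a*, both lower in NOD1-1IS-/-, and for 0 of the 5 in the higher direction. Over the 84 pathway genes, 28.6% did not overlap and were lower and 9.52% did not overlap and were higher. As the set was chosen on this contrast, nothing is read from the count. The median log2 difference of the 84 genes was −0.11, with 59 genes below 0 and 25 above. Ranked from the lowest of the 84, *hspa4a* was at place 7, *fkbp1ab* at 10, *hspa4b* at 43, *fkbp1aa* at 58 and *fkbp8* at 65. Relative to that median, the log2 difference was −0.61 for *hspa4a* and −0.45 for *fkbp1ab*, against 0.00 for *hspa4b*, 0.09 for *fkbp1aa* and 0.17 for *fkbp8*. The median SD of ΔCt over the 84 genes was 0.13 cycles in WT and 0.14 in NOD1-1IS-/-, so the SD of *hspa4a* in NOD1-1IS-/- was above the usual spread and that of *fkbp1ab* below it.

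The 2 lower genes, which were chosen for their difference, were the only ones of the 5 whose raw Ct came later in NOD1-1IS-/-. Their mean Ct was later by 0.26 cycles for *fkbp1ab* and by 0.42 cycles for *hspa4a*. The Ct of the other 3 genes was earlier, with changes from WT to NOD1-1IS-/- of −0.19 cycles for *hspa4b*, −0.28 for *fkbp1aa* and −0.36 for *fkbp8*. The positive PCR control changed by −0.21 cycles, and by −0.091 without NOD1-1IS-/- replicate 1. On raw Ct the genotypes did not overlap for *hspa4a*, for which the latest WT replicate had a Ct of 23.22 and the earliest NOD1-1IS-/- replicate 23.24. For *fkbp1ab* they overlapped, since WT replicate 3 had a Ct of 25.80 and NOD1-1IS-/- replicate 1 one of 25.76.

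The size of every difference depended on the reference genes, and that of the 2 lower genes changed sign under 1 choice. The raw Ct of the 5 reference genes of the plate changed from WT to NOD1-1IS-/- by −0.51 cycles for *nono*, −0.21 for *rpl13a*, −0.19 for *hprt1*, 0.16 for *b2m* and 0.70 for the muscle actin gene *acta1b*. Expression relative to *nono* alone therefore gave the lowest log2 differences, −0.76 for *fkbp1ab* and −0.92 for *hspa4a*, and expression relative to *acta1b* alone gave the highest, 0.44 and 0.28. Over 12 choices of reference, including raw Ct and the mean and the median of the pathway genes, the log2 difference was below 0 in 11 for *fkbp1ab* and in 11 for *hspa4a*. The genotypes did not overlap in 9 of these choices for *fkbp1ab* and in 10 for *hspa4a*. Both genes were chosen for a difference under most references, and several choices share reference genes, so nothing is read from these counts. With *b2m* alone the log2 differences were −0.10 and −0.26, and the genotypes overlapped for both genes. With *acta1b* alone they overlapped as well. The SD of the ΔCt of *acta1b* itself was 0.30 cycles in WT and 0.55 in NOD1-1IS-/- (n = 3 each), above that of *fkbp1ab* in either genotype. For *b2m* the SD was 0.066 cycles in WT, below that of *fkbp1ab*, and 0.19 in NOD1-1IS-/-, above it. For *hspa4a* the SD was 0.075 cycles in WT and 0.31 in NOD1-1IS-/-, the latter about that of *acta1b* in WT.

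The sign of the other 3 genes also depended on the reference. The log2 difference of *fkbp1aa* ran from −0.22 with *nono* alone to 0.99 with *acta1b* alone and was above 0 in 10 of 12 choices, and its genotypes did not overlap in 5. That of *fkbp8* ran from −0.14 to 1.06 and was above 0 in 11 of 12, with no overlap in 6 choices, in which it was higher in NOD1-1IS-/-. That of *hspa4b* ran from −0.31 to 0.89 and was above 0 in 7 of 12. Its genotypes did not overlap in 3 choices, lower in NOD1-1IS-/- with *nono* alone and higher with *b2m* alone and with *acta1b* alone. In the 6 choices that separated *fkbp8*, limma called more of the 84 pathway genes higher than the 3 with *hprt1*, *nono* and *rpl13a*. The count was 55 with *acta1b* alone, 39 with *b2m* alone, 21 on raw Ct and 19 with all 5 reference genes. It was 18 with the mean and 7 with the median of the pathway genes. With *nono* alone, 29 were called lower. The share of all genes without overlap is not given for these choices, so nothing is read from these counts. Another reference moves all genes of a replicate by one amount, so the distance of the 5 genes from each other and from the pathway median was the same in all 12 choices.

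**Figure D2:**
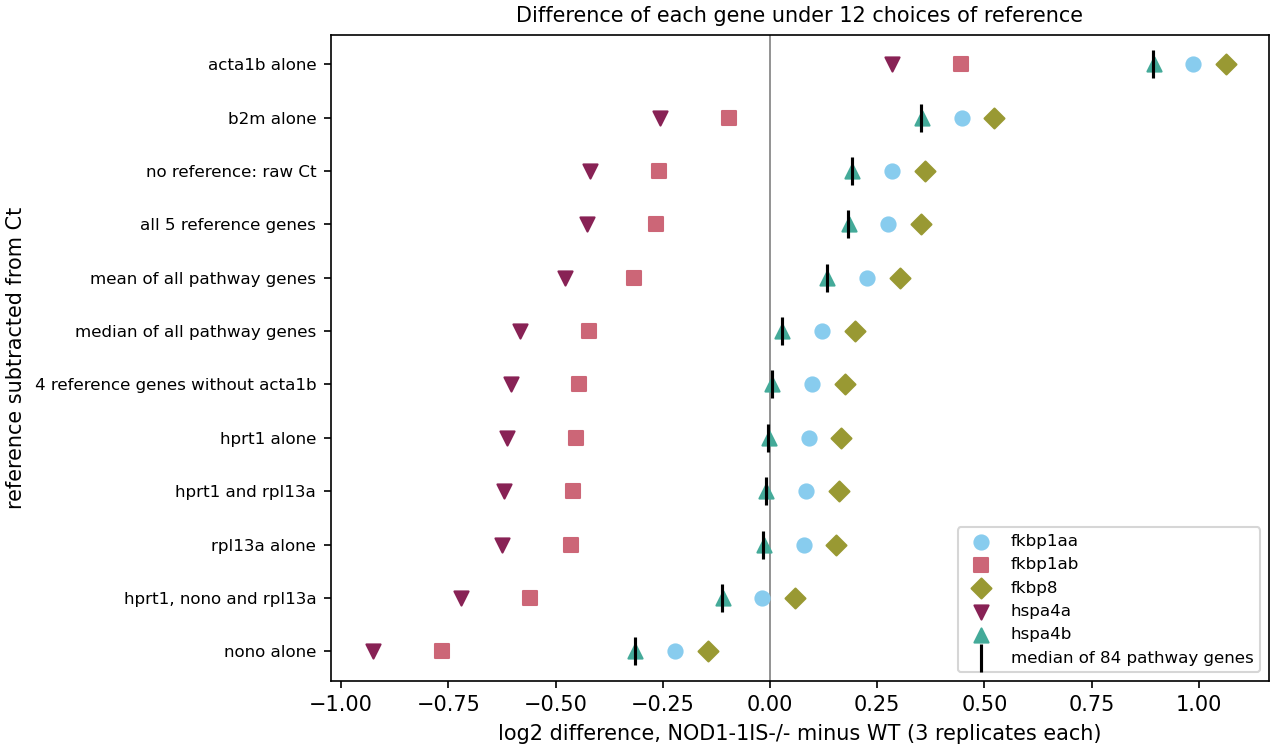
Log2 difference of the 5 genes between NOD1-1IS-/- and WT (x axis, 3 replicates each) under 12 choices of reference (y axis), with the median of the 84 pathway genes as a black bar. The choices shift all symbols together, from −0.76 (*nono* alone) to 0.44 (*acta1b* alone) for *fkbp1ab*, while *fkbp1ab* and *hspa4a* stay left of the median, *hspa4b* lies on it and *fkbp1aa* and *fkbp8* lie right of it.

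The Ct gap between 2 genes of the same replicate needs no reference gene. The gap of *fkbp1ab* minus *fkbp1aa* was 7.48, 7.38 and 7.75 cycles in the WT replicates and 8.03, 8.16 and 8.05 cycles in the NOD1-1IS-/- replicates. Each NOD1-1IS-/- replicate had a wider gap than any WT replicate. The mean rose from 7.54 ± 0.19 cycles (SD, n = 3) to 8.08 ± 0.074 cycles (SD, n = 3), by 0.54 cycles. Set against *fkbp1aa*, *fkbp1ab* was thus 1.46-fold lower in NOD1-1IS-/-, where every cycle doubles the product of both primer pairs. Whether each primer pair reads only its own gene was not tested. The gap of *hspa4a* minus *hspa4b* was 1.96, 1.76 and 1.97 cycles in the WT replicates and 2.57, 2.29 and 2.65 cycles in the NOD1-1IS-/- replicates, again with no overlap. It widened from 1.90 ± 0.12 cycles (SD, n = 3) to 2.51 ± 0.19 cycles (SD, n = 3), by 0.61 cycles or 1.53-fold. When single replicates were omitted the change stayed between 0.47 and 0.65 cycles for the *fkbp1a* pair and between 0.54 and 0.72 cycles for the *hspa4* pair. The Ct gap did not overlap between the genotypes for 45.4% of the 3486 pairs of pathway genes, and both of these pairs hold a gene that was chosen for its difference.

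Between the 2 lower genes the gap overlapped. For *fkbp1ab* minus *hspa4a* it was 2.48, 2.52 and 2.58 cycles in WT and 2.35, 2.65 and 2.10 cycles in NOD1-1IS-/-, a change of −0.16 cycles. The gap between the 2 FKBP genes without a clear shift, *fkbp8* minus *fkbp1aa*, was 5.25, 5.25 and 5.17 cycles in WT and 5.10, 5.16 and 5.19 cycles in NOD1-1IS-/-, a change of −0.076 cycles that also overlapped. The array holds 3 more pairs of genes named a and b, which were picked out after the values were seen. Their gaps changed by −0.14 cycles for *eif4bb* minus *eif4ba*, 0.26 for *vegfab* minus *vegfaa* and −0.38 for *insrb* minus *insra*, and the genotypes did not overlap for 1 of the 3, the insulin receptor copies.

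**Figure D3:**
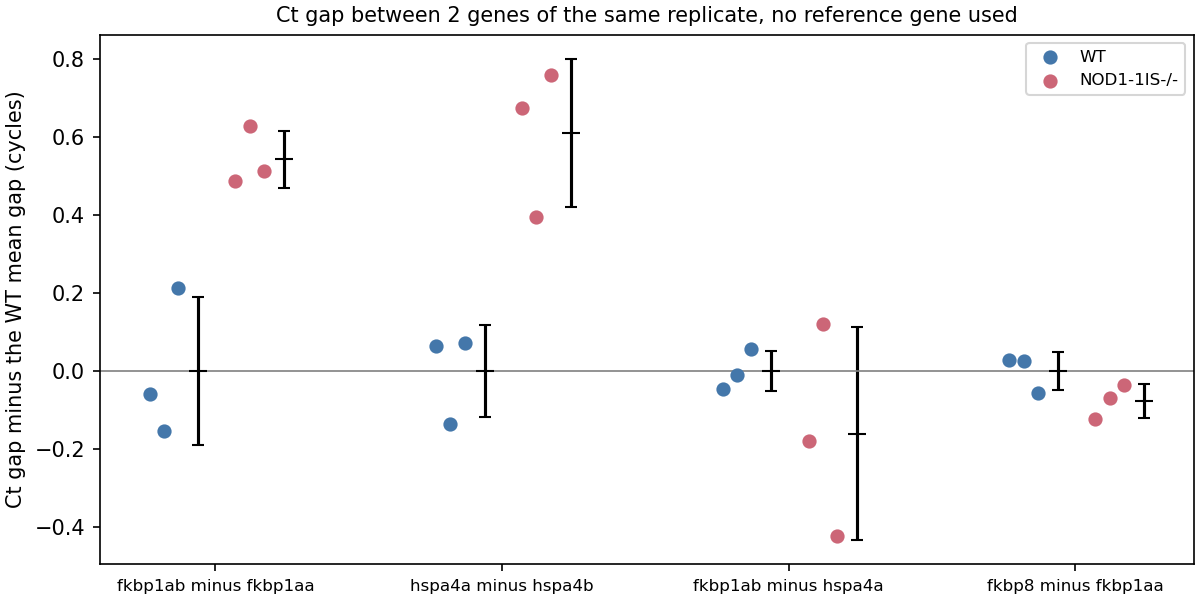
Ct gap between 2 genes of the same replicate, in cycles relative to the mean WT gap, for WT (blue) and NOD1-1IS-/- (red). Points are replicates 1 to 3 from left to right and bars the mean ± SD; the gap widens by 0.54 cycles for *fkbp1ab* minus *fkbp1aa* and by 0.61 cycles for *hspa4a* minus *hspa4b*, and the genotypes overlap for the other 2 pairs.

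The profile of −ΔCt over the 6 replicates was compared between genes by Pearson's r, as a description, since all values of a replicate share its plate and its reference mean. The genes with the profile most like that of *fkbp1ab* were *akt2l* (r = 0.98), *rragd* (r = 0.97) and *hrasb* (r = 0.96), and those most like *hspa4a* were *ddit4* (r = 0.97), *rragd* (r = 0.96) and *prkab2* (r = 0.94). Between themselves *fkbp1ab* and *hspa4a* had an r of 0.92. The r was 0.02 between *fkbp1ab* and *fkbp1aa* and 0.79 between *hspa4a* and *hspa4b*. Ranked by r, *fkbp1ab* was at place 67 for *fkbp1aa*, and *hspa4a* at place 7 for *hspa4b*. In each pair 1 gene was chosen for its difference between the genotypes, so nothing is read from these values. The profile of *fkbp1aa* was closest to *eif4bb* (r = 0.96), *eif4ea* (r = 0.92) and *cab39l* (r = 0.91), and that of *fkbp8* to *rragca* (r = 0.88), *fkbp1aa* (r = 0.86) and *pik3cg* (r = 0.82). For *hspa4b* the closest were *eif4ba* (r = 0.92), *pik3cb* (r = 0.89) and *ikbkb* (r = 0.87). The r of 2 genes that both differ between the genotypes includes that shared difference. Of the genes most like *fkbp1ab* and *hspa4a*, the log2 difference was −6.30 for *akt2l*, −2.35 for *rragd* and −1.87 for *ddit4*. It was −0.81 for *prkab2* and −0.14 for *hrasb*.

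The target of the FKBP12-rapamycin complex, the mTOR kinase, and other genes of its complexes were read on the same array. The 7 genes of the mTOR complexes and their assembly were *mtor*, *rptor*, *mlst8*, *deptor*, *akt1s1*, *rictorb* and *telo2*. Of these, limma called 1 lower and 1 higher in NOD1-1IS-/- at an adjusted p below 0.05 (Benjamini-Hochberg, 84 genes). Over the 84 genes, 19.0% were lower and 3.57% higher by this test. With 1 gene called in each direction, nothing is read from these counts about the 7 genes. The median log2 difference of the 7 genes was −0.07, against −0.11 for the 84. The lower gene was *deptor*, which codes for an inhibitor of both mTOR complexes. Its ΔCt was 1.81, 1.69 and 1.57 cycles in WT and 2.11, 1.95 and 2.13 cycles in NOD1-1IS-/-, with a log2 difference of −0.37 (standard error 0.11, adjusted p = 0.0383 from limma, from 0.00247 to 0.628 over its alternatives). The sign of *deptor* turned with *b2m* alone and *acta1b* alone, and its call was lost with every other reference except *nono* alone and without WT replicate 1, 2 or 3 or NOD1-1IS-/- replicate 1 or 3, and with the replicate number as a block. The higher gene was *mlst8*, a subunit that both complexes share. Its ΔCt was 4.67, 4.69 and 4.73 cycles in WT and 4.42, 4.20 and 4.37 cycles in NOD1-1IS-/-, with a log2 difference of 0.37 (standard error 0.10, adjusted p = 0.0362 from limma, from 1.2e-05 to 0.395 over its alternatives). It was above 0 with all references, and its call was lost with *nono* alone, without WT replicate 1, 2 or 3 or NOD1-1IS-/- replicate 2, and with the replicate number as a block. The kinase gene *mtor* itself had a ΔCt of 3.32, 3.39 and 3.22 cycles in WT and 3.47, 3.45 and 3.43 cycles in NOD1-1IS-/-, a log2 difference of −0.14 (standard error 0.10, adjusted p = 0.349 from limma, from 0.0395 to 0.996 over its alternatives). The *mtor* replicates did not overlap between the genotypes, and the sign of the difference turned with 5 of the other references. Among the alternatives *mtor* was called only with *acta1b* alone, where it was higher in NOD1-1IS-/- (log2 difference 0.86). With that reference limma called 55 of the 84 genes higher.

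Of the 3 genes around Rheb, *rheb*, *tsc1b* and *tsc2*, 0 were lower and 0 higher at an adjusted p under 0.05 in limma, and 1, *tsc2*, had an unadjusted p under 0.05, as did 27 of the 84 genes (32.1%). The log2 difference was −0.07 for *rheb* (standard error 0.10), −0.12 for *tsc1b* (standard error 0.14) and −0.35 for *tsc2* (standard error 0.13). Products of the TSC genes form the complex that switches Rheb off. With *nono* alone as reference 1 of the 3 was lower, and with *b2m* alone 1 and with *acta1b* alone 2 were higher. Of the 84 genes, the same test called 29 lower with *nono* alone, and 39 with *b2m* alone and 55 with *acta1b* alone higher. Nothing is therefore read from these counts about the 3 genes.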

How the data were processed

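Total RNA (1000 ng) of each pool was reverse transcribed with SuperScript III and amplified for 40 cycles with SYBR Green by the authors, who deposited raw threshold cycles (Ct, another unit than counts) per well. The authors also deposited normalized values, a ratio to the reference genes on a linear scale (2 raised to −ΔCt), as a single column for each genotype. Of 31 combinations of the 5 reference genes, *hprt1*, *nono* and *rpl13a* gave these values to within 4.00e-07 on the log2 scale, so they were used here, on the Ct of each replicate. The deposited fold changes, the authors' own comparison, were not used. The 6 columns carry the genotype and a replicate number, and the precision rests on these 3 replicates per genotype, each with a single well for a gene.

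The 84 pathway genes were compared with limma (version 3.58.1) in R 4.3.3. P-values were two-sided, adjusted by Benjamini-Hochberg across the 84 genes and called below 0.05. No gene was filtered. Genes and lists were chosen with earlier results of these data known. The genes named are all fkbp and hspa4 genes, the reference genes, genes of 2 lists (mTOR complexes, Rheb and TSC) and, per gene, the 3 most alike by Pearson's r. Alternatives were 11 other references, of which the pathway median was added after seeing the data, each replicate left out, the replicate number as a block, the ratio of mean linear values, a trended robust prior, a Ct limit of 30 and non-overlap. RefSeq identifiers of all 5 genes matched the RefSeq gene table. Sequences and genome coordinates are not given here.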

Additional observations from a re-analysis of the deposited data

How the results depend on the processing

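The reference genes moved the log2 differences and the counts, and 1 choice turned the sign of both lower genes. In the order *fkbp1aa*, *fkbp1ab*, *fkbp8*, *hspa4a* and *hspa4b*, they were 0.28, −0.27, 0.35, −0.43 and 0.18 with all 5 reference genes, 0.45, −0.10, 0.52, −0.26 and 0.35 with *b2m* alone, 0.99, 0.44, 1.06, 0.28 and 0.89 with *acta1b* alone, 0.23, −0.32, 0.30, −0.48 and 0.13 with the mean of the pathway genes, and 0.28, −0.26, 0.36, −0.42 and 0.19 on raw Ct. With *nono* alone they were −0.22 for *fkbp1aa*, −0.76 for *fkbp1ab*, −0.14 for *fkbp8* and −0.31 for *hspa4b*. For *fkbp1aa*, *fkbp1ab* and *hspa4b* they were 0.10, −0.44 and 0.0057 with the 4 reference genes without *acta1b*, 0.090, −0.45 and −0.0028 with *hprt1* alone, 0.084, −0.46 and −0.0087 with *hprt1* and *rpl13a*, and 0.12, −0.42 and 0.028 with the median of the pathway genes, which gave 0.20 for *fkbp8*. With *rpl13a* alone they were 0.078 for *fkbp1aa* and −0.46 for *fkbp1ab*. The other values moved by less than the SD of ΔCt pooled over both genotypes. Without single replicates the log2 difference ran from −0.07 to 0.03 for *fkbp1aa*, −0.62 to −0.51 for *fkbp1ab*, 0.01 to 0.14 for *fkbp8*, −0.88 to −0.57 for *hspa4a* and −0.16 to −0.03 for *hspa4b*.

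Against 16 lower and 3 higher of the 84 genes in limma, there were 7 and 19 with all 5 reference genes, 10 and 5 without *acta1b*, 10 lower with *hprt1* alone, 29 and 1 with *nono* alone, 10 and 5 with *rpl13a* alone, 5 and 39 with *b2m* alone, 3 and 55 with *acta1b* alone, 10 lower with *hprt1* and *rpl13a*, 9 and 18 with the mean and 9 and 7 with the median of the pathway genes, and 7 and 21 on raw Ct. Non-overlap gave 8 higher. Without single replicates the counts ran from 10 (without WT replicate 3) to 15 lower and from 0 (without WT replicate 3) to 4 higher (without NOD1-1IS-/- replicate 3). Of the 7 mTOR complex genes, 0 were lower with any reference but *hprt1*, *nono* and *rpl13a* together (1) and *nono* alone (2), and the higher count was 2 with all 5 reference genes, 0 with *nono* alone, 4 with *b2m* alone, 5 with *acta1b* alone, 2 with the mean of the pathway genes and 2 on raw Ct. Without single replicates both counts ran from 0 to 1. Of the 3 Rheb and TSC genes, 1 was lower with *nono* alone and with a trended robust prior, 1 was higher with *b2m* alone and 2 with *acta1b* alone, and without single replicates 0 to 1 were lower and 0 higher. Another reference shifts the log2 difference of every gene by the same offset. What else moved the counts was not tested.

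With the replicate number as a block, the log2 differences were unchanged by construction, with −0.56 for *fkbp1ab*, and 0 of the 7 mTOR complex genes were lower and 0 higher. The columns do not say whether replicates of the same number belong together. The correlations of same-numbered deviations were −0.22, 0.09 and −0.05, and those of different-numbered ones ran from −0.35 to 0.46. With 3 replicates per genotype, these values cannot tell paired from unpaired replicates. The Ct limit of 30 removed no gene. A PCR array has no read depth, and 1 well per gene leaves the error of a well unmeasured.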
